A study of Mus musculus with 6 samples.

Results

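The G1 cyclins and their inhibitors were followed as 10 genes, the D cyclins Ccnd1, Ccnd2 and Ccnd3, the E cyclins Ccne1 and Ccne2, the Cip/Kip inhibitors Cdkn1a and Cdkn1b, and the Ink4 inhibitors Cdkn2a, Cdkn2b and Cdkn2c. They were chosen by gene name for their place in the G1 phase, and all 10 had a row among the 17110 genes of the authors' deposited table. The RNA came from mouse embryonic stem cells, labelled TG2A, that carry a fluorescent protein under MERVL, a retroviral element active in the two-cell embryo and in rare cultured cells called two-cell-like. Every culture was kept in serum with leukemia inhibitory factor, and sorting separated a MERVL::DsRed2+ from a MERVL::DsRed2- group, each with 3 replicates collected on separate dates. The sort rests on the reporter alone, and whether the line is a single clone is not given in the sources used here. Polyadenylated RNA was captured and read as paired ends.

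D cyclins bind and activate the kinases Cdk4 and Cdk6, which begin to inactivate the retinoblastoma protein and so release E2F transcription factors. E cyclins activate Cdk2 and drive entry into S phase. Ink4 proteins block Cdk4 and Cdk6, whereas Cip/Kip proteins act mainly on cyclin E and cyclin A complexes of Cdk2. Mouse embryonic stem cells are known for a short G1 phase, abundant cyclin E and low Ink4 expression.

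The only values used here for these genes are the authors' DESeq2 results, with 1 mean normalized count over all libraries, 1 log2 fold change and 1 standard error a gene. Levels in each library, depth and the spread between replicates were not analysed here, because no column of counts could be tied to a sample. The groups compared were taken to be the sorted ones, the only groups the labels list. The authors' deposited table does not say which group is the numerator of a fold change. A positive value below means more RNA in that unnamed numerator group, and a negative value means less. In bulk RNA, fewer cells of a kind cannot be told apart from less RNA in each cell.

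Of the 10 genes, 5 passed an adjusted p-value of 0.05 by DESeq2 in the authors' deposited table, 1 positive and 4 negative. Ccnd2, Ccne2, Cdkn1b and Cdkn2a were lower in the numerator group, and Ccnd3 was higher. Cdkn1a, Ccnd1, Ccne1, Cdkn2b and Cdkn2c did not pass. Among all 17110 genes in the authors' deposited table, 30.5% passed, 14.6% as positive and 15.9% as negative genes. Among the 10 genes the shares were 10% positive and 40% negative, so the positive share lay near the background and the negative share above it. With so few genes, no test of that excess was made. The median log2 fold change was -0.42 over the 10 genes and 0.0097 over all genes.

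**Figure D1:**
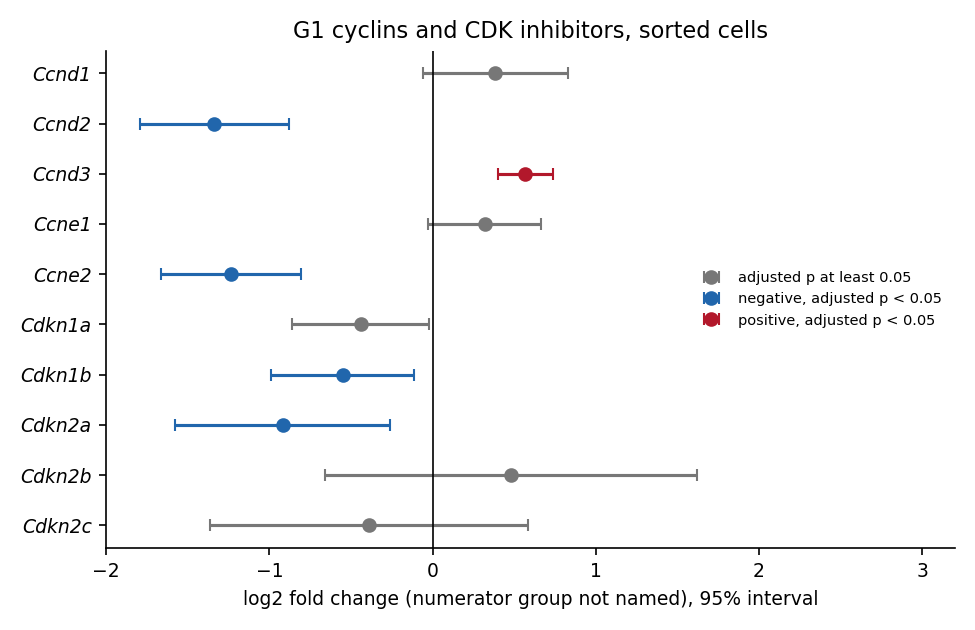
Log2 fold change of each gene (x axis, circles) with its 95% interval (bars) from the authors' deposited fold changes and standard errors. Ccnd2 and Ccne2 lie farthest to the negative side, at -1.34 and -1.23, and Ccnd3 is the single gene past the threshold on the positive side.

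The 3 D cyclins, which link growth signals to the cell cycle, did not move together. The authors' deposited table lists Ccnd2 (ENSMUSG00000000184, chromosome 6) at a log2 fold change of -1.34 ± 0.23 (standard error), DESeq2 adjusted p-value 1.36e-07. That is a level 2.53-fold lower in the numerator group, with a 95% interval from 1.84 to 3.47. Only 6.62% of all genes had a fold change as low as that of Ccnd2 or lower. Ccnd3 (ENSMUSG00000034165, chromosome 17) went the other way, and the authors' deposited table gives it 0.57 on the log2 scale, standard error 0.086, DESeq2 adjusted p-value 8.94e-10. This is a 1.48-fold higher level (95% interval 1.32 to 1.67). The intervals of Ccnd2 and Ccnd3 lie on opposite sides of 0 and are far apart, although the difference between the genes was not tested. Ccnd1 (ENSMUSG00000070348, chromosome 7), the D cyclin most often tied to mitogen and Wnt signals, is listed at 0.38 ± 0.23 (standard error) on the log2 scale, and its DESeq2 adjusted p-value in the authors' deposited table is 0.204. The 95% interval for Ccnd1, from 0.96-fold to 1.78-fold, includes no difference as well as the fold of Ccnd3.

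Of the 2 E cyclins, Ccne2 passed as negative and Ccne1 did not pass. Ccne2 (ENSMUSG00000028212, chromosome 4) was 2.35-fold lower in the numerator group (95% interval 1.75 to 3.16). Its log2 fold change in the authors' deposited table was -1.23 ± 0.22 (standard error), at a DESeq2 adjusted p-value of 2.01e-07. Ccne1 (ENSMUSG00000002068, chromosome 7) encodes the other cyclin E and was the most abundant of the 10 genes. With 0.32 ± 0.18 (standard error) on the log2 scale in the authors' deposited table, Ccne1 did not pass (DESeq2 adjusted p-value 0.168). Its 95% interval ran from 0.98-fold to 1.59-fold, which does not overlap that of Ccne2.

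The Cip/Kip inhibitors were both negative, and 1 of the 2 passed. Cdkn1b (ENSMUSG00000003031, chromosome 6) encodes p27, a brake on cyclin E and Cdk2. The authors' deposited table lists Cdkn1b at -0.55 ± 0.22 (standard error) on the log2 scale, just inside the threshold at a DESeq2 adjusted p-value of 0.0460. Its level was 1.47-fold lower, with a 95% interval from 1.08 to 1.99. Cdkn1a (ENSMUSG00000023067, chromosome 17) encodes p21, a main target of p53. In the authors' deposited table Cdkn1a had -0.44 ± 0.21 (standard error), an unadjusted p-value of 0.0396 and a DESeq2 adjusted p-value of 0.108. The intervals of both inhibitors overlap over most of their length, and Cdkn1a ranged from 1.01-fold to 1.82-fold lower. With the median ribosomal protein gene as the centre, Cdkn1a passed at -0.53 (Wald test adjusted over all genes, p-value 0.0421).

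Among the Ink4 genes, which arrest cells in G1, Cdkn2a alone passed. Cdkn2a (ENSMUSG00000044303, chromosome 4) had a mean normalized count of 58.0 and a log2 fold change of -0.92 ± 0.34 (standard error) in the authors' deposited table (DESeq2 adjusted p-value 0.0240). Its level was 1.89-fold lower (95% interval 1.20 to 2.98). Cdkn2a makes 2 unrelated proteins, p16Ink4a and Arf, from separate first exons, and a value per gene does not tell them apart. Cdkn2b (ENSMUSG00000073802), which encodes p15 and lies next to Cdkn2a, and Cdkn2c (ENSMUSG00000028551), which encodes p18, had means of 14.0 and 18.3 normalized counts in the authors' deposited table. At these levels the log2 fold changes of Cdkn2b and Cdkn2c in the authors' deposited table, 0.48 ± 0.58 and -0.39 ± 0.50 (standard errors), came with DESeq2 adjusted p-values of 0.591 and 0.614. The interval of Cdkn2b, from 0.63-fold to 3.08-fold, spans folds in both directions, so no difference was detectable at this level. For Cdkn2c the interval ran from 0.39-fold to 1.50-fold.

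Promoter sequences from RefSeq (GRCm38.p6, 250 bases before to 50 after a start) were found by symbol for 7 of the 10 genes, at 11 starts, and those of Ccnd1, Ccnd2 and Ccne2 were not used. The authors' own build is GRCm39 per the submitters' processing notes, so the coordinates below are only those of the RefSeq table. The stretches shown are 200 bases each, 5′ to 3′, upstream of annotated exons of the gene. They belong to the 3 genes past the threshold that had a promoter, and to Cdkn1a for its p53 motif. Capitals mark a match to the E2F motif (TTTCCCGC, TTTCGCGC, TTTGGCGC or TTTGCCGC, either strand) or to the p53 consensus of 20 bases with at most 1 mismatch outside its cores.
Cdkn2a, upstream start (first exon of Arf), chr4:89294654-89294853, minus strand: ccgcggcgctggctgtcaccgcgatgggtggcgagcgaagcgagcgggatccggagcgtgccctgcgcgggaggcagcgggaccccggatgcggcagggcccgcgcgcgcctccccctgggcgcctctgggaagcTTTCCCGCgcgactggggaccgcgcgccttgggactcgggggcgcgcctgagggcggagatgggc
Cdkn2a, downstream start (first exon of p16Ink4a), chr4:89282193-89282392, minus strand: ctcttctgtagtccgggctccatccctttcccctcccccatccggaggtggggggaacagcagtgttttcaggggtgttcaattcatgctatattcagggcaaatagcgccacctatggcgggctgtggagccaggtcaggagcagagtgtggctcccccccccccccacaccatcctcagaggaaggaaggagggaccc
Cdkn1b, chr6:134920201-134920400, plus strand: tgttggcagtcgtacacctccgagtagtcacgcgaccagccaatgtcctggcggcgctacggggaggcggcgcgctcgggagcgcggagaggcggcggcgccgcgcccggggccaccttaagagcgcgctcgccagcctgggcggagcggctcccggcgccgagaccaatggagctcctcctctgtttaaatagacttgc
Cdkn1a, upstream of its 2 starts, chr17:29090776-29090975, plus strand: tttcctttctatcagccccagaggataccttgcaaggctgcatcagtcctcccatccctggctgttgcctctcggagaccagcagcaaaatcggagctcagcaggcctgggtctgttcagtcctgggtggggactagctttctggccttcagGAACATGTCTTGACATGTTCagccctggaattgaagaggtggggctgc
Ccnd3, downstream of its 2 starts, chr17:47593236-47593435, plus strand: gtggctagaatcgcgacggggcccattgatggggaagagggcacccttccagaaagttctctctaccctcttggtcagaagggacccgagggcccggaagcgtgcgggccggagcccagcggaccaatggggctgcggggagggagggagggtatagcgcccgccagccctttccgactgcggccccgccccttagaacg

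An E2F motif was present at 1 of the 11 starts, the Arf start of Cdkn2a, and it was absent from the p16Ink4a window. Over all 32851 RefSeq promoters 2.27% held this motif, and over the 14675 promoters of genes with a row it was 3.88%. The p53 motif was found at the upstream start of Cdkn1a and at 18 (0.0548%) of all promoters. A GC box (GGGCGG, either strand) was in 9 of the 11 windows, against 35.7% of all promoters and 61.0% of those of genes with a row. The p53 search was set up with the known site of this gene in mind. These matches describe the letters of the windows, and none of them was measured as bound in these cells.

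Levels differed widely among the 10 genes. In the authors' deposited table the mean normalized counts over all libraries were 10540 for Ccne1, 5492 for Ccnd3, 4641 for Ccnd1, 1907 for Ccnd2, 969 for Cdkn1b, 959 for Ccne2 and 797 for Cdkn1a. Ccne1 exceeded 96.8% of all genes in mean count, whereas Cdkn2b and Cdkn2c exceeded 11.2% and 14.8%. Per kilobase of the longest coding transcript in GENCODE M21, Ccne1 had the highest level (5270 normalized counts per kilobase) and Ccnd3 the next (2599). Ccnd1 followed at 1241 and Cdkn1a at 383 on that scale. Ccne2, Ccnd2 and Cdkn1b lay close together at 319, 301 and 213 per kilobase. The Ink4 genes were lowest, with 64.9 for Cdkn2a, 10.1 for Cdkn2b and 7.39 for Cdkn2c per kilobase. With the median coding transcript as the length, Ccne1 and Ccnd3 were again highest and the Ink4 genes lowest, but Ccnd2 moved from 301 to 1917 per kilobase and from place 6 to place 3. Cdkn2b and Cdkn2c also changed places, at 10.1 and 10.2 per kilobase. The order from place 3 to place 7, and that of places 9 and 10, therefore depends on the transcript taken, and no spread over samples is known for it. By both lengths Ccnd3 was the most abundant D cyclin and Ccne1 the more abundant E cyclin.

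**Figure D2:**
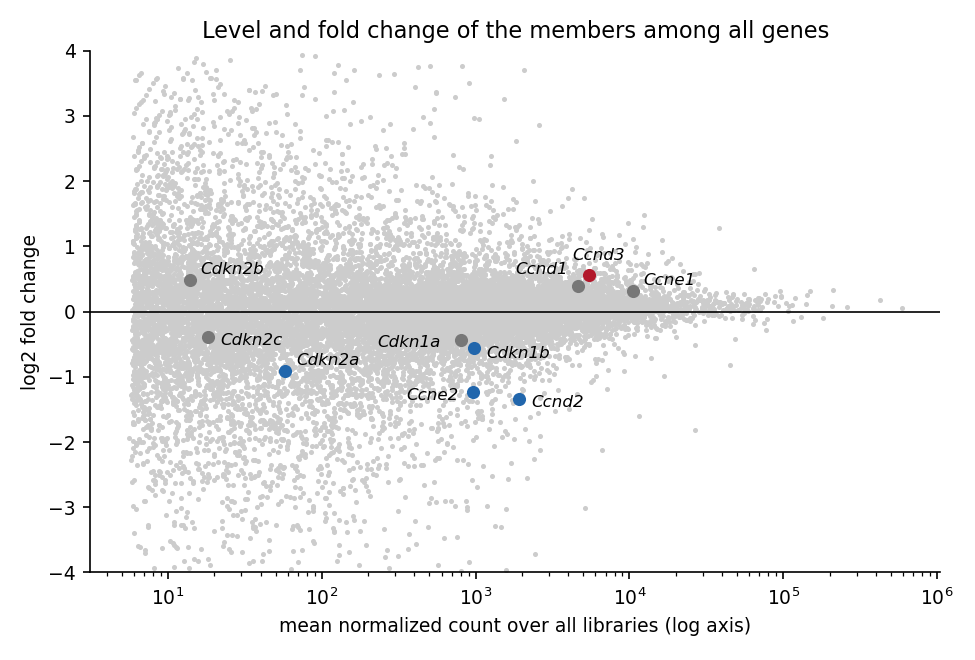
Log2 fold change (y axis) against mean normalized count over all libraries (x axis, log scale) for all genes (pale points, 179 genes beyond 4 in either direction not drawn) and the 10 named genes (red positive and blue negative past the threshold, dark gray not). The D and E cyclins lie at means between 959 and 10540, and the Ink4 genes lie below 100.

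Most of these fold changes were less precise than those of other genes at the same level. Standard errors in the authors' deposited table were compared with those of the 500 genes nearest in mean count. Of the 7 genes with a mean of at least 500, 6 had a standard error 1.68 to 2.20 times the median of their neighbours in level, and above that of at least 94.2% of them. The ratio was highest for Ccnd1, whose 0.23 compares with a median of 0.10, and Ccnd2 came next at 2.12 times. Ccnd3 was the exception at 0.83 times the median. Ccnd3 at 0.57 passed with a far smaller adjusted p-value than Cdkn1b at -0.55, and Ccnd1 at 0.38 did not pass at a mean count near that of Ccnd3. Standard errors of Cdkn2a, Cdkn2b and Cdkn2c were 0.97, 0.91 and 0.88 times the median at their low counts. Which libraries differ for the imprecise genes was not analysed here.

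**Figure D3:**
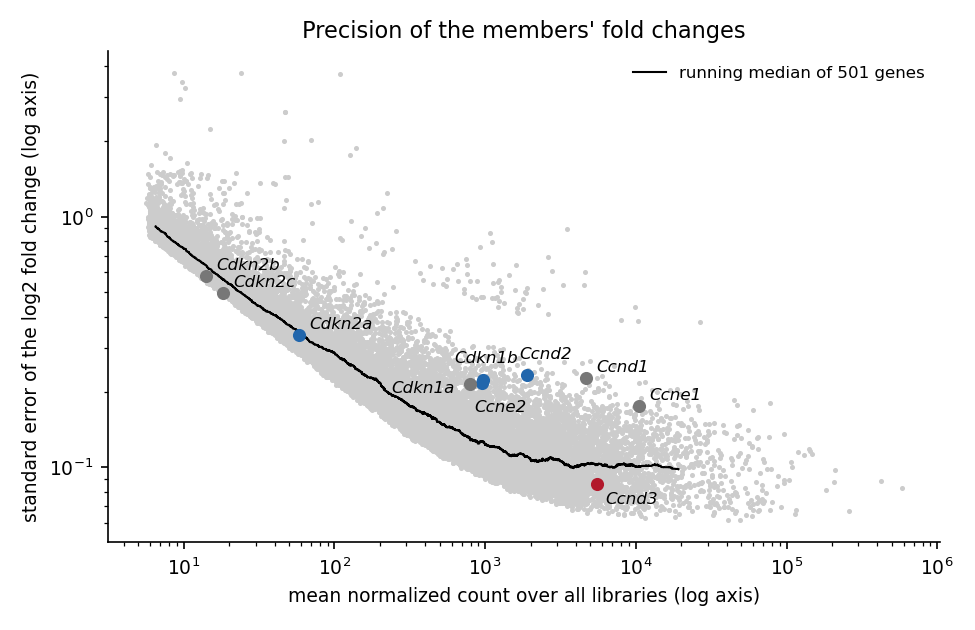
Standard error of the log2 fold change (y axis, log scale) against mean normalized count (x axis, log scale) for all genes (pale points), with a running median over 501 genes (line). Of the 7 named genes with a mean of at least 500, 6 lie above the line, and Ccnd3 lies below it.

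The kinases and other G1 regulators were examined through 10 lists of 145 genes, of which 144 had a row. By the DESeq2 test of the authors' deposited table, 25 of them passed as positive and 35 as negative genes. These are 17.4% and 24.3% of the 144 genes, beside 14.6% and 15.9% of all genes, and the counts of each list below are to be read against the same background. With the median ribosomal protein gene as the centre, that background itself moved. All 17110 genes then gave 1864 positive and 3508 negative calls, against 2492 and 2719 without it. List counts with ribosomal centring are to be read against that shift. Without that centring, the median log2 fold change of the 144 genes was -0.042. Of the 8 kinases and activators, 1 was positive and 1 negative. Cdk2, the partner of the E cyclins, had a log2 fold change of 0.46 ± 0.088 (standard error) in the authors' deposited table (DESeq2 adjusted p-value 2.56e-06). Cdk6, a partner of the D cyclins, had -0.48 ± 0.13 in the authors' deposited table (DESeq2 adjusted p-value 0.00188). Cdk4, the other such partner, was more abundant and stood at 0.093 ± 0.12 in the authors' deposited table, without a call (DESeq2 adjusted p-value 0.608).

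Of the 4 other inhibitors and brakes, 1 passed in each direction. Cdkn1c, the imprinted gene of the Cip/Kip family, had a log2 fold change of -0.68 ± 0.16 (standard error; DESeq2 adjusted p-value 0.000229) in the authors' deposited table. All 3 Cip/Kip genes were thus negative, and Cdkn1b and Cdkn1c passed. The fourth Ink4 gene, Cdkn2d, had 0.12 ± 0.16 in the authors' deposited table (DESeq2 adjusted p-value 0.628). Wee1, the kinase that restrains Cdk1 and Cdk2, was positive at 0.30 ± 0.083 in the authors' deposited table.

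Among 17 pocket proteins, E2F factors and their partners, 3 were positive and 4 negative past the threshold, and 1 and 5 with the median ribosomal protein gene as the centre. Rb1, the retinoblastoma protein, had a log2 fold change of -0.64 ± 0.18 (standard error) in the authors' deposited table, at a DESeq2 adjusted p-value of 0.00149. The repressor E2f6 was lower still, at -0.85 ± 0.16 in the authors' deposited table, and the activator E2f2 was the highest, at 0.89 ± 0.14. Lin37, a subunit of the DREAM complex, had 0.37 ± 0.13 in the authors' deposited table. Of 20 E2F targets used at the start of S phase, 7 were positive and 1 negative, with a median of 0.14. The 7 positive calls became 4 with ribosomal centring, 4 at an adjusted p-value under 0.01 and 1 with the authors' limit of 0.5 on the absolute log2 fold change. Pola1, a subunit of the DNA polymerase that makes primers, had 0.72 ± 0.093, and the licensing factor Cdt1 had 0.42 ± 0.079 in the authors' deposited table. Slbp, which binds histone mRNA, was the negative one, at -0.41 ± 0.16 in the authors' deposited table. Of the 6 S and M phase cyclins and kinase with a row, 3 were positive and 0 negative by DESeq2 (0 negative also at an unadjusted p-value under 0.05), such as Ccnf at 0.65 ± 0.10 and Cdk1 at 0.58 ± 0.085 in the authors' deposited table.

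Genes that remove cyclins and inhibitors gave 4 positive and 3 negative calls among 18, and 3 positive and 5 negative with ribosomal centring. The farthest from 0 of the genes called was Fbxo4, a ubiquitin ligase subunit for cyclin D1, at -1.96 ± 0.39 (standard error) in the authors' deposited table (DESeq2 adjusted p-value 4.95e-06), with a mean normalized count of only 39.2. Fzr1, an activator of the anaphase-promoting complex in G1, was the most positive with a log2 fold change of 0.83 ± 0.085 (standard error) in the authors' deposited table. Usp28, a deubiquitinase, had 0.59 ± 0.16 in the authors' deposited table. Gsk3b, a kinase that marks cyclin D1 for export and decay, had -0.42 ± 0.091, and the ligase scaffold Cul4a had -0.28 ± 0.079 in the authors' deposited table.

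The mitogen and Wnt factors upstream of the D cyclins had 1 positive and 9 negative calls among 18, with a median log2 fold change of -0.38. The negative calls were Fos, Fosl1, Fosl2, Jun, Junb, Jund, Egr1, Tcf7 and Tead1. Myc, Mycn, Ctnnb1, Tcf7l1, Tcf7l2, Lef1, Etv4 and Yap1 did not pass in either direction. Jun and Fos, the subunits of AP-1, were lowest among those with a mean count of at least 100, at -3.03 ± 0.23 and -2.57 ± 0.42 (standard errors) in the authors' deposited table. Jun was 8.19-fold and Fos 5.95-fold lower in the numerator group. The positive one was Etv5, an ETS factor downstream of FGF signalling, at 0.47 ± 0.097 in the authors' deposited table.

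The p53 axis around Cdkn1a had 1 positive and 6 negative calls among 15, with a median of -0.19, and 0 and 7 with ribosomal centring by the Wald test. Btg2 and Phlda3, targets of p53 like Cdkn1a, had log2 fold changes of -0.98 ± 0.16 and -0.95 ± 0.19 (standard errors) in the authors' deposited table. Trp53, which encodes p53 itself, did not pass, at 0.25 ± 0.17 in the authors' deposited table (DESeq2 adjusted p-value 0.273). Chek2, a kinase that activates p53, was positive at 0.29 ± 0.094 in the authors' deposited table. A list of 12 genes upstream of Cdkn1a, Cdkn1b and Cdkn2b held FoxO, Smad and related factors, the ligand Tgfb1 and the receptors Tgfbr1 and Tgfbr2. Of these 12 genes, 6 were negative and 0 positive by DESeq2, with a median of -0.36, and 1 was positive at an unadjusted p-value under 0.05. Tgfb1 and Tgfbr2 were among the 6, and Tgfbr2 was farthest from 0, at -2.68 ± 0.44 with a mean normalized count of only 43.5. Foxo4 and Smad3 had -0.80 ± 0.13 and -0.83 ± 0.19 in the authors' deposited table.

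Polycomb subunits and other regulators of the Ink4/Arf locus gave 4 positive and 4 negative calls among 26, with a median of 0.069. That is 15.4% in each direction, near the 14.6% and 15.9% of all genes. Tbx3, a T-box repressor of Arf that is also a naive pluripotency factor, had a log2 fold change of 2.39 ± 0.18 (standard error) in the authors' deposited table, a 5.25-fold higher level. Eed, a core Polycomb subunit, had 0.57 ± 0.13 in the authors' deposited table. Phc2, a subunit of the other Polycomb complex, had -1.11 ± 0.12, and Id2, an inhibitor of basic helix-loop-helix factors, had -0.98 ± 0.27 in the authors' deposited table. The farthest from 0 of the genes called was Ets1, at -2.95 ± 0.45 with a mean normalized count of only 51.8 (DESeq2 adjusted p-value 8.87e-10). Bmi1 was also called negative, at -0.61 ± 0.20.

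**Figure D4:**
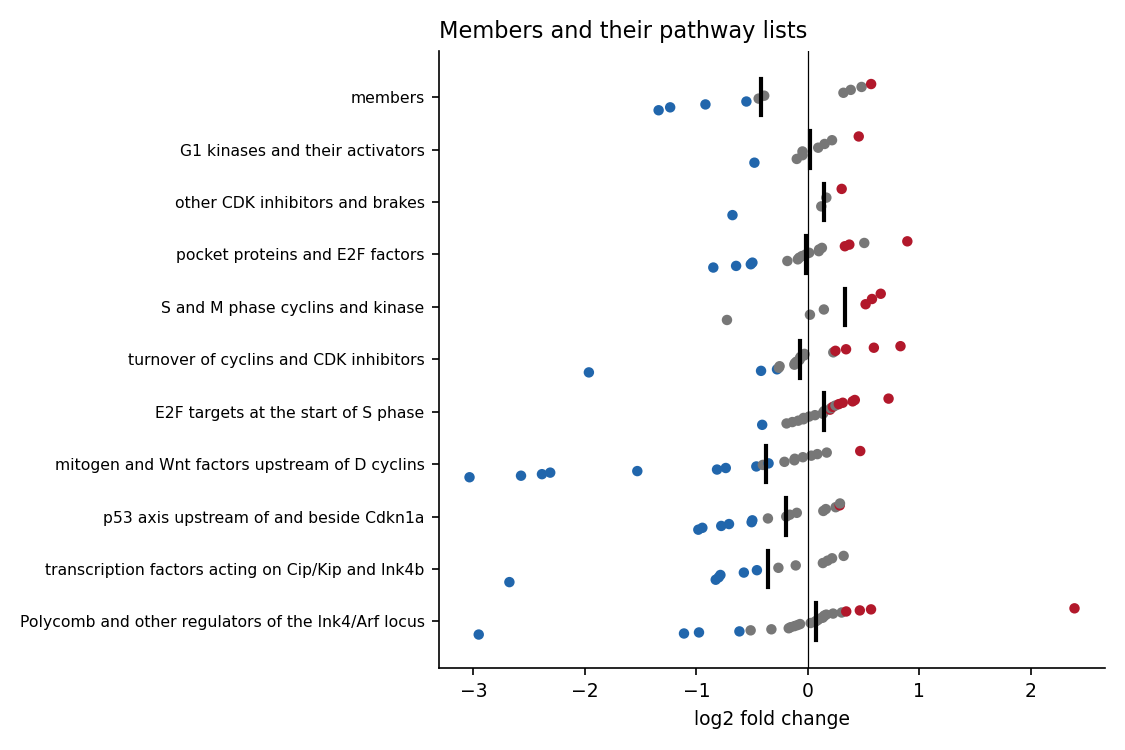
Log2 fold change (x axis) of the 10 genes (top row, "members") and of the genes in 10 pathway lists (1 row each, 1 point a gene). Red and blue points passed an adjusted p-value of 0.05 as positive and negative, gray points did not, and black bars are medians. The median of the 10 genes is -0.42, and those of the lists run from -0.38 for the mitogen and Wnt factors to 0.33 for the S and M phase list.

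The nearest gene with a row on either side of each of the 10 was set beside it, to see whether a fold change extended to the neighbours. The gene order was that of GENCODE M21, and genes without a row were passed over. Tigar, a metabolic phosphatase gene next to Ccnd2, had a log2 fold change of 0.76 ± 0.081 (standard error) in the authors' deposited table, opposite to Ccnd2 (DESeq2 adjusted p-value 4.06e-19). On the other side of Ccnd2, Tpi-rs11 had -0.89 ± 0.53 at a mean normalized count of 17.8. Its direction was that of Ccnd2, but it did not pass (DESeq2 adjusted p-value 0.208). Next to Ccne2, Trp53inp1 and Ints8 had -0.36 ± 0.16 and -0.089 ± 0.083 in the authors' deposited table, neither past the threshold by DESeq2. Mtap and Cdkn2b flank Cdkn2a, and Mtap had -0.33 ± 0.14 in the authors' deposited table (DESeq2 adjusted p-value 0.0638). Beside Ccnd3, Taf8 had 0.19 ± 0.079 and Bysl 0.20 ± 0.15 in the authors' deposited table, both below the 0.57 of Ccnd3. Taf8 passed in the same direction as Ccnd3 (DESeq2 adjusted p-value 0.0470) and Bysl did not pass (DESeq2 adjusted p-value 0.318). Uri1, next to Ccne1, passed as positive at 0.29 ± 0.11 in the authors' deposited table (DESeq2 adjusted p-value 0.0296). On the other side of Ccne1, 1600014C10Rik had 0.072 ± 0.19 and did not pass (DESeq2 adjusted p-value 0.827). Beside Cdkn1b, the long noncoding RNA gene Lockd had 0.10 ± 0.32 in the authors' deposited table. On the other side of Cdkn1b, 2810454H06Rik had -1.05 ± 0.93 at a mean normalized count of 6.19. It went in the direction of Cdkn1b without passing (DESeq2 adjusted p-value 0.434). Rnf11, next to Cdkn2c, was negative at -0.73 ± 0.12 in the authors' deposited table (DESeq2 adjusted p-value 1.5e-08). Faf1, on the other side of Cdkn2c, had 0.084 ± 0.081 and did not pass (DESeq2 adjusted p-value 0.479). Of the flanking genes outside the 10, only Tigar, Taf8, Uri1 and Rnf11 passed, to be read beside the 30.5% of all genes that passed. In that annotation Ccnd1, Ccnd2, Ccnd3, Ccne2 and Cdkn1a overlap a gene on the opposite strand, and whether the authors' counting used strand is not given in the sources used here. Reads of such pairs may not have been told apart.

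**Figure D5:**
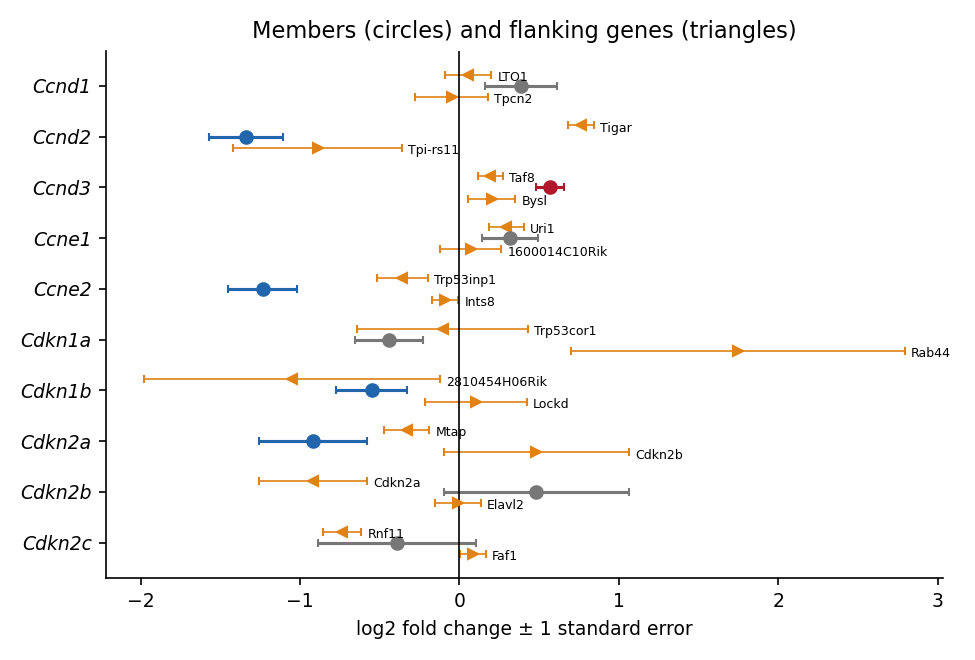
Log2 fold change with 1 standard error (x axis) of each named gene (circles, red or blue past the threshold) and of its flanking genes. These are the nearest genes with a row before it (left triangle) and after it (right triangle) on the chromosome. Ccnd2 at -1.34 and its neighbour Tigar at 0.76 lie on opposite sides of 0.

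Markers of other states moved in the same table. Their counts are to be read beside the shares of all genes called, 14.6% positive and 15.9% negative. Of 11 embryonic stem cell markers with a row, 8 were positive and 0 negative by DESeq2 in the authors' deposited table (0 negative also at an unadjusted p-value under 0.05), and all had mean counts of at least 2822. Of the primed epiblast markers 7 of 7 were negative, and of the trophectoderm markers 7 of 9. The fibroblast or feeder markers gave 5 negative calls among 8 with a row, at mean counts between 9.33 and 1849, of which 7 were below 100. Primitive endoderm markers gave 1 positive and 2 negative calls among 8. Only 2 of 18 two-cell markers had a row used here, Calcoco2 at 3.10 and Nelfa at 0.22 in the authors' deposited table, and the others were not analysed here, so the reporter sort could not be checked by them. The negative calls of Ccnd2, Ccne2, Cdkn1b and Cdkn2a shared their sign with the called epiblast, trophectoderm and fibroblast markers, as did all 2719 negative genes. Ccnd3 shared its sign with the called stem cell markers and Calcoco2, as did all 2492 positive genes. Primitive endoderm markers were called in both directions. The part of these markers in the result was not tested, and their levels in each group were not analysed here.

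The authors' own calls add a limit of 0.5 on the absolute log2 fold change, and by it 9.4% of all genes are up and 12.1% down in the authors' deposited table. The same 5 of the 10 genes carry that call, with Cdkn1b at -0.55 and Ccnd3 at 0.57 closest to the limit. When the fold itself was tested against 0.5 on the log2 scale, Ccnd2 and Ccne2 passed (Wald test, Benjamini-Hochberg adjusted p-values 0.00493 and 0.0102), and Ccnd3, Cdkn1b and Cdkn2a did not. Setting the median ribosomal protein gene to 0, which shifts each fold change by 0.093, moved the positive share of all calls from 47.8% to 34.7%. Calls over all 17110 genes went from 2492 positive and 2719 negative to 1864 and 3508. With this centring the members called were 1 positive and 5 negative, to be read beside that shift.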

How the data were processed

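The series compares RNA of sorted MERVL::DsRed2+ and MERVL::DsRed2- mouse embryonic stem cells, 3 samples each. Per the submitters' processing notes, the authors used FastQC 0.12.1, Trimmomatic 0.39, STAR 2.7.11b, RSEM 1.3.3 and DESeq2 1.45.3 with GRCm39. The annotation, strand setting, model formula and reference group are not given in the sources used here. The authors deposited, for each gene, a mean normalized count over libraries (a signal), a log2 fold change with its standard error on the log2 scale, a Wald statistic (a score), a p-value and an adjusted p-value, and a call. A table with 6 count columns was not used, because their names match no sample, so depth per sample is unknown here and the planned tests on counts were not run.

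Fold changes were tested across all genes by the authors, and their adjusted p-values over all genes were taken as deposited. From them, 95% intervals (normal approximation on the log2 scale), ranks and standard errors relative to the 500 genes nearest in mean count were computed in Python 3.11.15 with pandas 2.3.3 and SciPy 1.17.1. Wald tests and Benjamini-Hochberg adjustment were repeated under 7 alternatives and were tested on simulated data. Lengths, gene order and overlaps came from GENCODE M21 (GRCm38), promoters from RefSeq (GRCm38.p6).

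The members and lists were chosen with earlier results of these data known. Named besides the members were, per pathway list, among genes past the 0.05 threshold with a mean of 100 or more, the 2 most positive and the 2 most negative, and 7 fixed genes (Cdk4, Cdk6, Cdk2, Cdkn1c, Cdkn2d, Rb1 and Trp53). Flanking genes, motifs and standard errors were added after the values were seen, as were Calcoco2, Nelfa, Fbxo4, Tgfb1, Tgfbr1 and Tgfbr2 by name. So were Ets1, Bmi1 and the mitogen and Wnt factors other than Jun, Fos and Etv5.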

Additional observations from a re-analysis of the deposited data

How the results depend on the processing

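No paired analysis was possible because no column of counts could be tied to a sample and the deposited comparison holds no values per sample. For the same reason the planned count tests, with and without a filter on the counts of each library, and the fits that leave out a replicate were not run, so whether 1 library decides a value was not tested. Depth per library was not computed. The 7 alternatives that could be run rest on the deposited fold changes. Under these alternatives the 10 genes gave 68 values, since Cdkn2b and Cdkn2c fall below the minimum mean count of 50. Of these values, 62 kept the call or its absence, 5 lost a call and 1 gained one. No direction could turn, because the alternatives kept the deposited fold change or shifted it by at most 0.093. The fold change smallest in size was 0.32, that of Ccne1. Adjusting again over all genes left the number of genes called at 5211. Ccnd2 and Ccne2 kept their call in all 7. Against a fold change of 0.5 by the Wald test, the call was lost for Ccnd3 (0.57), Cdkn1b (-0.55) and Cdkn2a (-0.92), which left 0 positive and 2 negative members. At an adjusted p-value under 0.01 the call was lost for Cdkn1b (-0.55) and Cdkn2a (-0.92), which left 2 negative members. Cdkn1a gained a call, at -0.53, when centred on the ribosomal protein genes. Pathway list calls went from 25 positive to 9 with the authors' limit of 0.5, and from 25 positive and 35 negative to 2 and 8 with the Wald test against 0.5. For all genes, 2492 positive calls became 1609 and 659, and 2719 negative ones 2067 and 927, under the same settings. These stricter limits themselves lower the counts. For single lists, 105 counts stayed within 1.5 times and 35 did not. Adjusted p-values over the alternatives ran from 1.34e-08 to 0.00493 for Ccnd2, from 1.73e-08 to 0.0102 for Ccne2 and from 0.0421 to 1 for Cdkn1a.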
